A study of Mus musculus with 16 samples.

Results

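*Eif3j1*, its near-identical copy *Eif3j2* and the neighbour of that copy, *Gm3650*, were followed through brain RNA sequencing of 16 mice. The 3 genes were picked out of 39179 features of the count table, by name, because their counts differed between the genotypes in these same mice. The mice formed 4 groups of 4, which were wild-type (MRPS5 WT) and V338Y (MRPS5 V338Y) at 3 and at 19 months of age. V338Y mice were homozygous for a knock-in that changes 1 amino acid of MRPS5, which belongs to the small subunit of mitochondrial ribosomes. The gene carries this change in every tissue, and the study describes the mice as C57/BL6. The labels call the tissue brain and the RNA extraction protocol names muscle, whereas the methods of the study describe cortex.

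Both *Eif3j1* and *Eif3j2* are annotated as genes for eIF3j, the loosely bound subunit of eukaryotic initiation factor 3 (eIF3). eIF3 sits on the small ribosomal subunit and gathers the initiator tRNA, the mRNA and the other initiation factors there. eIF3j helps eIF3 to bind that subunit and, together with the ATPase ABCE1, takes part in its release after translation has ended. A gene copy without introns is usually a retrocopy, made from an mRNA that was copied back into the genome.

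*Eif3j1* (ENSMUSG00000027236) lies on chromosome 2 from 122028546 to 122056598 on the plus strand of GRCm38 and has 8 exons. *Mrps5*, the gene that carries the knock-in, starts on the same chromosome 5.53 Mb further on. *Eif3j2* (ENSMUSG00000043424) is a single exon on chromosome 18, from 43475418 to 43477796 on the minus strand. *Gm3650* (ENSMUSG00000097891), with 5 exons on the plus strand from 43472816 to 43475169, is annotated as an unprocessed pseudogene and ends 248 bases before *Eif3j2*. These positions come from the GENCODE M21 annotation.

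The 2379 bases of *Eif3j2* aligned with positions 78 to 2446 of the 5413-base *Eif3j1* transcript at 99.4% identity, with 4 mismatches and 2 gaps. The coding region, including the stop codon, was 786 bases in *Eif3j1* and 792 bases in *Eif3j2*, and the only difference inside it was a gap of 6 bases near the start codon. The second gap, of 4 bases, and 3 of the mismatches lay after the coding region, and the remaining mismatch lay before it. The 6 bases that *Eif3j2* has in addition fall within a repeat of 21 bases at the start codon, in exon 1 of *Eif3j1*, and the 4 additional bases fall within a run of 7 A in exon 8. A read can be told apart from one of the other copy only where it covers such a place or the parts of *Eif3j1* that *Eif3j2* lacks.

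Reads were single-end and of 1 fixed length, so each transcript was cut into all its words of the read length. Of the 5288 words of *Eif3j1*, 34.2% also occurred in *Eif3j2*. Of the 2254 words of *Eif3j2*, 80.3% also occurred in *Eif3j1*, and 19.7% occurred in no other transcript on the same strand. *Gm3650* shared no such word with *Eif3j2*. All of its 747 bases fell in 5 blocks that matched positions 2695 to 5049 of the *Eif3j1* transcript on the opposite strand, with 746 identical bases. *Spg11*, the gene that overlaps the last 3079 bases of *Eif3j1* on the opposite strand, held 79.7% of the read-length words of *Gm3650* on the same strand. *Eif3j2* and *Gm3650* thus both had counterparts within the single locus of *Eif3j1* and *Spg11*.

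**Figure D1:**
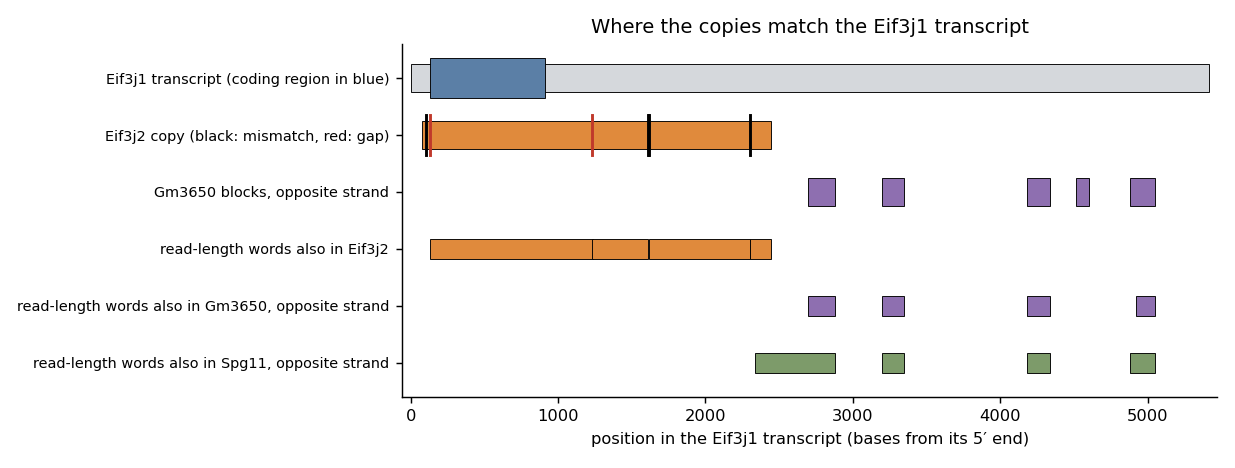
The x axis is the position in the *Eif3j1* transcript in bases from its 5′ end, and each row shows where one kind of match lies. The *Eif3j2* copy covers positions 78 to 2446 with 4 mismatches (black lines) and 2 gaps (red lines), the 5 *Gm3650* blocks lie on the opposite strand behind it, and the lower rows show the stretches covered by read-length words shared with each gene.

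Total counts per mouse were between 6181448 and 19601664, and levels are given as CPM, the reads of a gene scaled to the total of its library after TMM normalization. Cortex markers had a summed level of 199.6 to 281.6 CPM in every mouse. With age, 3 of the 6 rose and 1 fell in each genotype. Among all genes tested, 31.4% rose and 31.5% fell with age in wild-type mice, and 23.1% rose and 25.7% fell in V338Y mice. Muscle markers summed to 9.49 to 71.6 CPM in V338Y mice at 19 months and to 4.12 to 8.67 CPM in the other groups. With age, 2 of these 4 rose in V338Y mice. Choroid plexus markers summed to 140.7 to 2170 CPM in V338Y mice at 19 months and to 201.3 to 939.1 CPM in the other groups. The part of these markers in the differences of the members was not tested. Cerebellum markers summed to between 726 and 1256 CPM in wild-type mice at 3 months and to between 105.5 (mouse 14) and 2097 CPM in V338Y mice at 3 months, against 95.5 to 115.3 CPM in all 19-month-old mice. The 4 Y-linked genes examined summed to between 243.8 and 288.3 CPM in every 3-month-old mouse and were at 0 in every 19-month-old mouse, although the methods call all mice female, so age and sex cannot be told apart here. *Mrps5* was at 39.5 ± 1.26 CPM (SD, n = 4) in wild-type and 39.7 ± 2.86 in V338Y mice at 3 months and at 29.8 ± 2.12 and 30.2 ± 1.25 at 19 months, which does not check the labels, since counts per gene do not show a changed codon.

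*Eif3j1* was lower in V338Y mice than in wild-type mice at both ages, by more than the spread between the mice of any group. At 3 months its level was 19.3, 21.2, 19.2 and 18.6 CPM in wild-type mice 9 to 12 and 8.76, 7.65, 7.10 and 9.66 CPM in V338Y mice 13 to 16. At 19 months it was 16.9, 17.4, 20.6 and 17.6 CPM in wild-type mice 12 to 15 and 6.87, 6.08, 8.21 and 8.58 CPM in V338Y mice 17 to 20. Every V338Y mouse lay below every wild-type mouse of either age. The log2 fold change was -1.24 (SE 0.11, 0.423-fold) at 3 months and -1.29 (SE 0.10, 0.408-fold) at 19 months. Of all genes tested, 1.83% at 3 months and 3.5% at 19 months were lower in V338Y mice without overlap. These differences between the genotypes carry no test, because the genes were chosen on them.

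*Eif3j2* was nearly without counts in wild-type mice and had about as many counts as *Eif3j1* in V338Y mice. In wild-type mice 9 to 12 at 3 months it had 0, 1, 2 and 1 counts, and in wild-type mice 12 to 15 at 19 months it had 3, 0, 0 and 0 counts. In V338Y mice it had 149, 194, 113 and 156 counts at 3 months and 76, 91, 144 and 109 counts at 19 months. The highest wild-type level was thus 0.241 CPM, in mouse 12 at 19 months, whereas the V338Y mice lay between 8.19 and 9.83 CPM at 3 months and between 5.95 and 7.62 CPM at 19 months.

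Summed over the 4 mice of a group, *Eif3j2* reached 612 counts in V338Y mice at 3 months against 4 in wild-type mice, a ratio of 106.6 after scaling to library size (95% exact interval 41.4 to 392.3). At 19 months it had 420 and 3 counts, a ratio of 93.2 (95% exact interval 31.7 to 453.9). The intervals cover counting error only, and the few wild-type counts set their width: without wild-type mouse 11, which had 2 of the 4 counts, the ratio at 3 months was 161.3. In all, 1.57% of genes at 3 months and 5.42% at 19 months were higher in V338Y mice without overlap.

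**Figure D2:**
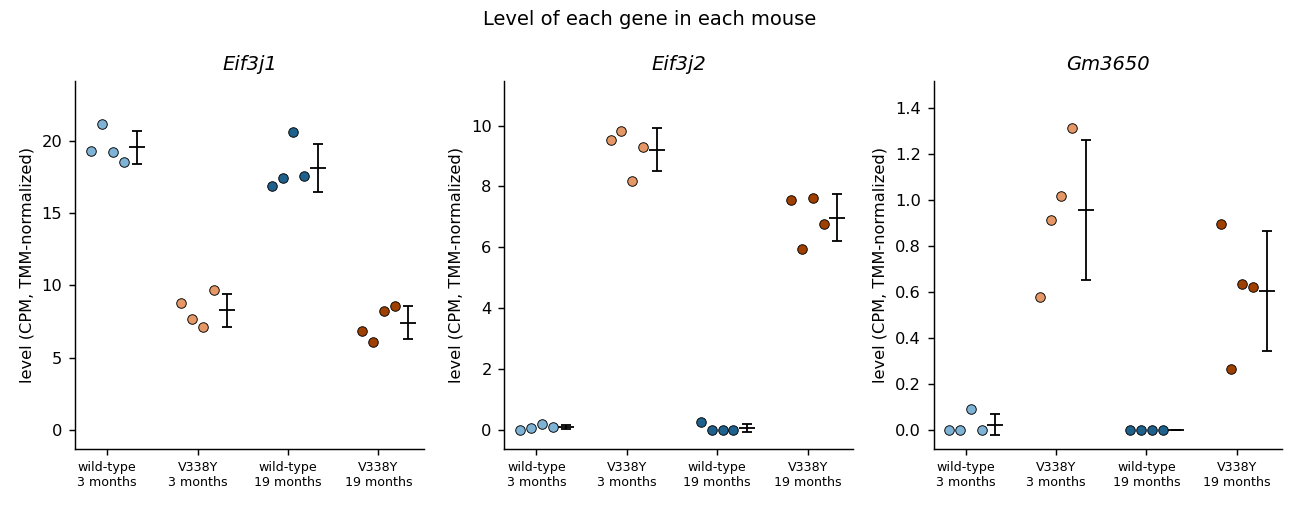
Each point is 1 mouse, the y axis is the level in CPM, and the bar beside the points is the mean with its SD (n = 4). *Eif3j1* (left) is lower and *Eif3j2* (middle) and *Gm3650* (right) are higher in all 8 V338Y mice than in any wild-type mouse.

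The share of *Eif3j2* in the counts of both copies lay between 44.1% and 56.2% in all V338Y mice. It was 52.1%, 56.2%, 53.6% and 49.1% in V338Y mice 13 to 16 at 3 months, and the 95% Clopper-Pearson intervals of these mice lay between 43.4% and 61.5%. It was 52.4%, 49.5%, 48.2% and 44.1% in V338Y mice 17 to 20 at 19 months, with intervals between 37.8% and 60.8%. Within each age, every interval overlapped every other. Between the ages, that of mouse 20 (up to 50.6%) ended just under that of mouse 14 (from 50.8%). In wild-type mice the share was 0.312%, 0.922% and 0.463% in mice 10 to 12 at 3 months and 1.40% in mouse 12 at 19 months. The remaining wild-type mice had 0 *Eif3j2* counts among 157, 213, 194 and 107 counts of both copies. If 0 is taken to allow 3 counts, these are shares of up to 1.91%, 1.41%, 1.55% and 2.80%. The 95% Clopper-Pearson intervals of these mice ended at 2.32%, 1.72%, 1.88% and 3.39%.

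A share of counts is not a ratio of transcripts, because the exons of *Eif3j1* span 5830 bases and those of *Eif3j2* 2379 bases. Per kb of exon, *Eif3j1* was at 1.42 ± 0.20 (SD, n = 4) and *Eif3j2* at 3.87 ± 0.30 CPM per kb in V338Y mice at 3 months. At 19 months the levels were 1.27 ± 0.20 and 2.93 ± 0.33 CPM per kb. On this scale *Eif3j2* was above *Eif3j1* in each of the 8 V338Y mice, by 2.75 ± 0.33-fold at 3 months and 2.33 ± 0.32-fold at 19 months, and its share was 73.2% and 69.7%. Wild-type mice had 3.36 ± 0.20 and 3.11 ± 0.29 CPM per kb of *Eif3j1* at the same ages. Which reads the counting gave to which copy enters these values, since most *Eif3j2* words also occur in *Eif3j1*, and its part in them was not tested.

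Added together as CPM, the copies differed less between the genotypes than either copy alone. The sum does not depend on how the counted reads were divided between the copies. Reads left uncounted as shared would be missing from it, and it takes no account of exon length. Per kb of exon, V338Y mice had 1.42 of *Eif3j1* and 3.87 of *Eif3j2* at 3 months, against 3.36 and 0.03 in wild-type mice. At 19 months they had 1.27 and 2.93, against 3.11 and 0.03. On that scale both copies together were higher, not lower, in V338Y mice. The values that follow are in CPM. At 3 months it was 19.3, 21.3, 19.4 and 18.6 CPM in wild-type mice and 18.3, 17.5, 15.3 and 19.0 CPM in V338Y mice, and these ranges overlapped. At 19 months the sum was 17.2, 17.4, 20.6 and 17.6 CPM in wild-type mice and 14.4, 12.04, 15.8 and 15.3 CPM in V338Y mice. Every V338Y mouse thus lay below every wild-type mouse, and 3.5% of all genes tested were lower without overlap in this comparison. The log2 fold change of the sum was -0.17 (SE 0.09, 0.889-fold) at 3 months and -0.35 (SE 0.09, 0.783-fold) at 19 months, again as a description with no test. Between the group means, V338Y minus wild-type, the difference was -11.3 CPM at 3 months and -10.7 CPM at 19 months for *Eif3j1*, and 9.13 and 6.92 CPM for *Eif3j2*.

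**Figure D3:**
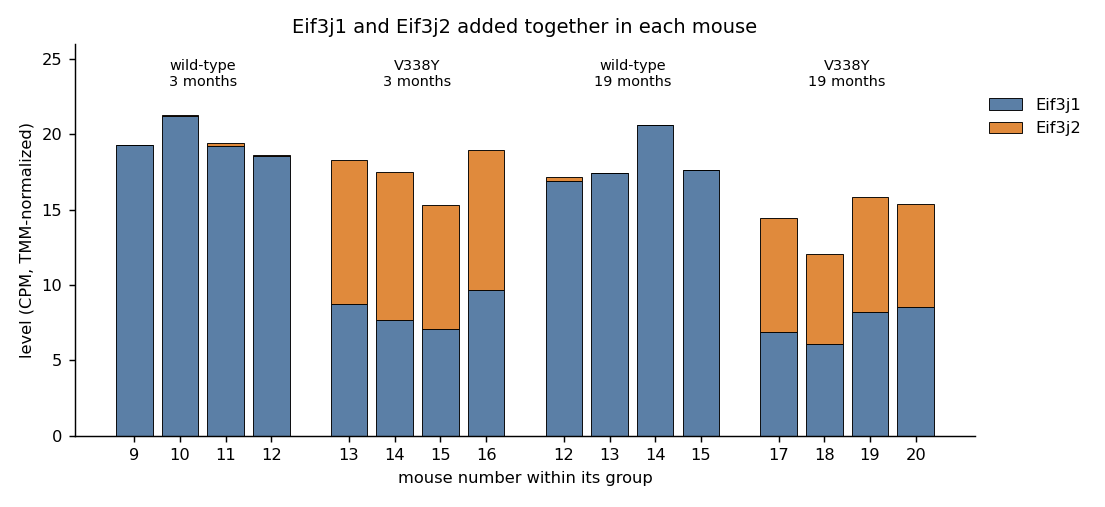
Each bar is 1 mouse, with its *Eif3j1* level (blue) and its *Eif3j2* level (orange) stacked in CPM, without correction for transcript length. The V338Y bars are made of both copies in similar parts and reach 15.3 to 19.0 CPM at 3 months and 12.04 to 15.8 CPM at 19 months, against 17.2 to 21.3 CPM in wild-type mice.

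*Gm3650* had counts in all V338Y mice and in 1 wild-type mouse. It had 0, 0, 1 and 0 counts in wild-type and 9, 18, 14 and 22 counts in V338Y mice at 3 months, and no counts in wild-type and 9, 4, 12 and 10 counts in V338Y mice at 19 months. The ratio was 43.9 (95% exact interval 7.59 to 1760) at 3 months. It rested on the single count of wild-type mouse 11, without which the ratio of *Gm3650* to 3 counts over the wild-type group was 11.1. At 19 months the ratio to the same limit was 7.77, and the 95% exact interval against the observed 0 counts began at 5.99. *Gm3650* had 10.5 ± 3.56 counts per 100 counts of *Eif3j2* in V338Y mice at 3 months and 8.44 ± 3.08 at 19 months (SD, n = 4). *Spg11*, with which *Gm3650* shares most of its words on the same strand, was at 39.6 ± 2.81 CPM in wild-type and 39.0 ± 4.43 CPM in V338Y mice at 3 months and at 50.5 ± 1.23 and 39.1 ± 1.22 CPM at 19 months.

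*Gm27325*, an annotated miRNA of 74 bases that lies wholly within *Eif3j2* at its positions 20 to 93, was named after its values were seen. It had no counts in any of the 8 wild-type mice. It had 6, 14, 2 and 14 counts in V338Y mice at 3 months and 5, 3, 5 and 5 counts at 19 months. This made it at least 8.36-fold and at least 3.995-fold higher than 3 counts over the wild-type group. The reads were longer than this feature, so reads of the feature and of *Eif3j2* cannot be told apart.

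With age, *Eif3j2* fell in V338Y mice. Its level was 9.21 ± 0.71 CPM at 3 months and 6.98 ± 0.79 CPM at 19 months (SD, n = 4), and all 4 older mice lay below all 4 younger ones, as did 23.6% of all genes tested. The log2 fold change was -0.40 (SE 0.11, 0.758-fold), with an adjusted p of 0.0102 in edgeR's quasi-likelihood test with Benjamini-Hochberg adjustment. In this comparison 48.8% of all genes tested passed the threshold of 0.05, and 25.7% of all genes tested passed it as lower. The adjusted p was 0.0522, at a log2 fold change of -0.51, in a fit with a score of the cerebellum markers as a further term. V338Y mouse 14, whose cerebellum markers were as low as those of the older mice, was at 9.83 CPM of *Eif3j2*. Mice 13, 15 and 16 of its group were at 9.525, 8.19 and 9.30 CPM, and 1 mouse cannot show the part of these markers. In such tissue samples, fewer cells of a type and less RNA per cell cannot be told apart.

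Markers of other cell types also moved with age in both genotypes. The counts below stand beside 31.4% of all genes tested that rose and 31.5% that fell in wild-type mice, and 23.1% and 25.7% in V338Y mice. All 4 endothelium, all 4 astrocyte and all 4 microglia markers, 3 of 4 oligodendrocyte and all 3 blood markers rose in each genotype, and no marker of these lists was at 0 in every mouse. In V338Y mice the summed level went from 132.2 to 143.5 CPM at 3 months to 597.2 to 731.8 CPM at 19 months for endothelium and from 811.7 to 1072 CPM to 1840 to 1998 CPM for astrocytes. It went from 2442 to 2979 CPM to 4231 to 4815 CPM for oligodendrocytes, from 118.6 to 167.6 CPM to 240.8 to 258.2 CPM for microglia and from 99.5 to 195.1 CPM to 295.2 to 363.7 CPM for blood. In wild-type mice endothelium went from 131.8 to 141.7 CPM to 630.5 to 676.03 CPM, astrocytes from 906.4 to 1006 CPM to 1951 to 2082 CPM, oligodendrocytes from 2777 to 3031 CPM to 4271 to 4444 CPM, microglia from 140.6 to 157.7 CPM to 254.7 to 278.3 CPM and blood from 96.3 to 171.2 CPM to 344.1 to 715.5 CPM. Of the 4 neuron markers, 2 fell in each genotype, and their sum went from 3106 to 3322 CPM to 2739 to 2972 CPM in wild-type mice, while its ranges overlapped in V338Y mice. The part of these markers in the age differences of *Eif3j2*, of the sum of both copies and of the initiation factors was not tested.

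*Eif3j1* did not pass the test with age in either genotype. Its log2 fold change was -0.08 (SE 0.09, adjusted p = 0.428, edgeR) in wild-type mice, where 62.8% of genes passed, and -0.15 (SE 0.13, adjusted p = 0.395) in V338Y mice. *Gm3650* had a log2 fold change of -0.69 (SE 0.37, adjusted p = 0.134, edgeR) in V338Y mice, and its age groups overlapped. In wild-type mice *Eif3j2* and *Gm3650* were under the count filter and were not tested. Whether *Eif3j1* and *Eif3j2* differed from each other in their change with age was not tested.

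The sum of both copies passed the test with age in V338Y mice, at a log2 fold change of -0.27 (SE 0.10, 0.827-fold, adjusted p = 0.0341, edgeR), although the age groups overlapped. It did not pass with the score of cerebellum markers as a further term (adjusted p = 0.233), under DESeq2 (adjusted p = 0.0654) or without V338Y mouse 13, 14, 16, 17, 18 or 20, where its adjusted p was between 0.0505 and 0.117. In wild-type mice the sum had a log2 fold change of -0.08 (SE 0.09, adjusted p = 0.420). The share of *Eif3j2* went from a mean of 52.7% to 48.5% in V338Y mice, a difference of -4.20 percentage points that did not pass a two-sided exact permutation test (p = 0.143, and the smallest p that 70 assignments allow is 0.0286). In wild-type mice the shares were 0.424% and 0.350% (exact permutation p = 1.0). These rest on 4 and 3 *Eif3j2* counts over the groups, too few for the test to show a change with age. The age effect in V338Y mice minus that in wild-type mice was -0.05 (SE 0.16) for *Eif3j1* and -0.18 (SE 0.13) for the sum on the log2 scale, given as a description.

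None of the 12 other subunits of eIF3 differed between the genotypes by the test. At 3 months their log2 fold changes were between -0.20 and 0.05 (median -0.07, against 0.00 over all genes tested), with 2 at an unadjusted p under 0.05, and DESeq2 called 0. At 19 months they were between -0.08 and 0.14 (median 0.02, against -0.00 over all genes), with 2 at an unadjusted p under 0.05, and DESeq2 again called 0. In these comparisons 0.0616% and 3.12% of all genes passed the threshold in either direction, so no call among 12 is near that share. At 3 months 11 of the 12 lay below 0 and 1 above, and at 19 months 4 lay below and 8 above. The 2 with an unadjusted p under 0.05 at 3 months were *Eif3f* at -0.20 (SE 0.07) and *Eif3g* at -0.19 (SE 0.06). *Eif3a*, the scaffold of the complex, was at 141.4 to 149.2 CPM in wild-type and 114.5 to 141.8 CPM in V338Y mice at 3 months.

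With age, alongside the cell type markers above, 7 of the 12 subunits fell in wild-type mice and none rose, against 31.5% of all genes that fell and 31.4% that rose. These were *Eif3c*, *Eif3d*, *Eif3e*, *Eif3g*, *Eif3i*, *Eif3k* and *Eif3m*. In V338Y mice 6 fell and 1 rose, against 25.7% and 23.1% of all genes. The 6 were *Eif3d*, *Eif3e*, *Eif3g*, *Eif3i*, *Eif3k* and *Eif3m*, and *Eif3a* rose by a log2 fold change of 0.18 (SE 0.07, adjusted p = 0.0495, edgeR). Without V338Y mouse 16, 17 or 18 the subunits called in V338Y mice numbered 3, and without mouse 13 or under the likelihood-ratio test 4. The largest fall in both genotypes was that of *Eif3g*, an RNA-binding subunit, with a log2 fold change of -0.39 (SE 0.06, adjusted p = 7.87e-07) in wild-type and -0.30 (SE 0.07, adjusted p = 0.00248) in V338Y mice. Its level went from 53.4 to 56.8 CPM at 3 months to 40.4 to 42.7 CPM at 19 months in wild-type mice, and from 44.1 to 50.7 CPM to 37.1 to 42.5 CPM in V338Y mice. Over the 12 subunits the median log2 fold change was -0.14 in wild-type mice and -0.13 in V338Y mice. No subunit passed the test of a difference in age effect between the genotypes, for which 3 had an unadjusted p under 0.05 and the smallest adjusted p was 0.265, against 0.0535% of all genes that passed.

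**Figure D4:**
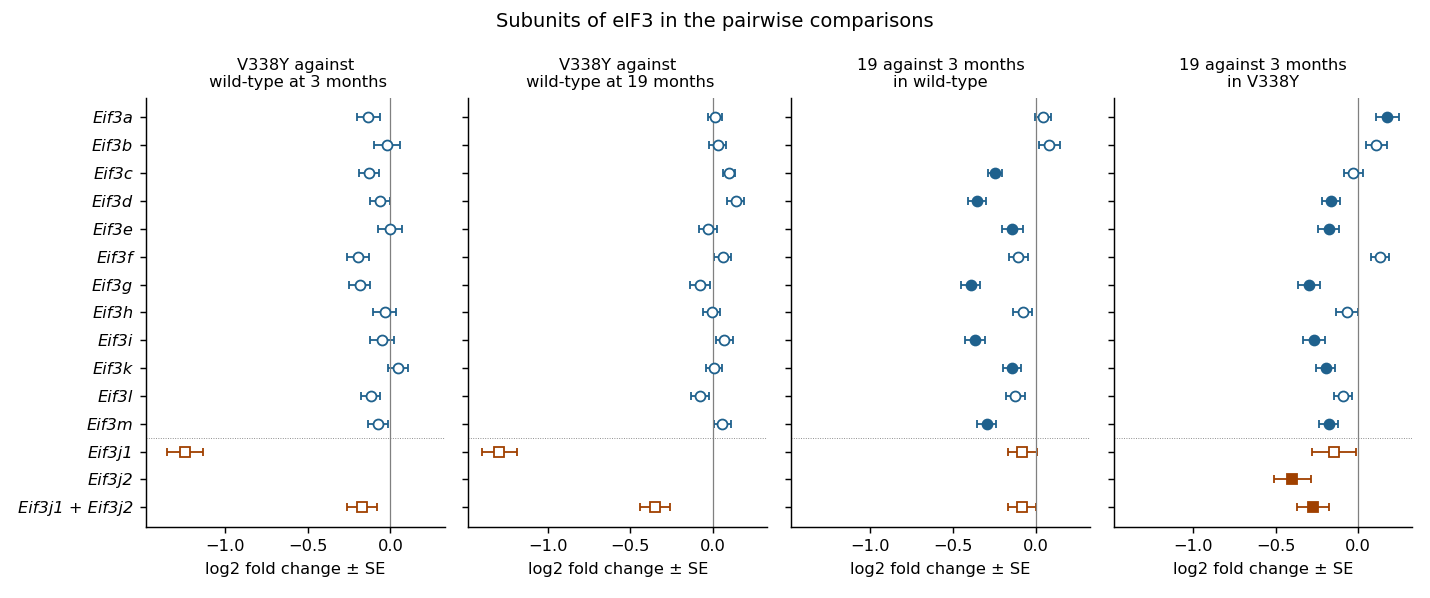
The x axes give log2 fold changes with their SE in the 4 pairwise comparisons, for the 12 other eIF3 subunits (circles) and for *Eif3j1*, *Eif3j2* and their sum (squares). Filled symbols passed an adjusted p of 0.05, open symbols did not or, for the squares in the genotype comparisons, were not tested, and *Eif3j2* is shown only where it could be fitted against a group with counts. The circles lie between -0.20 and 0.14 in the genotype comparisons, while *Eif3j1* lies at -1.24 and -1.29.

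A wider list of 33 factors that act with eIF3 in initiation, or in ribosome recycling and reinitiation, was examined in the same way. None of the 33 passed the test between the genotypes at 3 or at 19 months, with 1 and 3 at an unadjusted p under 0.05. DESeq2 made 0 calls. Over all genes tested, 0.0616% at 3 months and 3.12% at 19 months passed, so no call among 33 is near that share. With age, 21 fell and 7 rose in wild-type mice, where 31.5% of all genes fell and 31.4% rose. In V338Y mice 18 fell and 3 rose, against 25.7% and 23.1% of all genes. The 14 factors of the preinitiation complex around eIF2 had 10 that fell in each genotype, among them *Eif1ax*, which takes part in start codon selection, at -0.63 (SE 0.04, adjusted p = 1.1e-13, edgeR) in wild-type and -0.59 (SE 0.06, adjusted p = 4.34e-06) in V338Y mice. The ages also differed in Y-linked transcripts, so a difference with age cannot be told apart from one with sex. This holds for every gene here, on any chromosome, and *Eif1ax* itself lies on chromosome X. *Eif1b*, a close relative of the start codon factor *Eif1*, fell by 0.72 and 0.54 on the log2 scale.

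Of the 7 genes for recycling and reinitiation, 6 fell in wild-type and 5 in V338Y mice. *Abce1*, which encodes the ATPase that acts with eIF3j in recycling, was at 124.7 ± 4.07 CPM in wild-type and 122.9 ± 4.74 CPM in V338Y mice at 3 months and at 89.7 ± 3.02 and 91.2 ± 4.16 CPM at 19 months (SD, n = 4). Its log2 fold change between the genotypes was -0.02 (SE 0.05) at 3 months and -0.00 (SE 0.04) at 19 months. The 12 genes around the cap-binding complex eIF4F were split with age, with 4 that rose and 5 that fell in wild-type mice and 2 that rose and 3 that fell in V338Y mice, against 31.4% and 31.5%, and 23.1% and 25.7%, of all genes. *Eif4h*, a helper of the RNA helicase eIF4A, fell on the log2 scale, with fold changes of -0.51 (wild-type) and -0.37 (V338Y). *Pabpc1*, the poly(A)-binding protein, rose by 0.65 (SE 0.07, adjusted p = 1.41e-09, edgeR) in wild-type mice, and its log2 fold change of 0.35 (SE 0.14, adjusted p = 0.0612) in V338Y mice did not pass. The test of a difference between these 2 age effects did not pass either (adjusted p = 0.562).

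Of the genes with a start within 1 Mb of the start of *Eif3j1*, 29 were tested between the genotypes. At 3 months 2 of them passed the threshold, against 0.0616% of all genes, *Bloc1s6* at 0.62 (SE 0.08, adjusted p = 0.00796, edgeR) and *Mfap1b* at -0.68 (SE 0.10, adjusted p = 0.0144). Without wild-type mouse 9 or 12 neither passed, and without wild-type mouse 10 or 11 only 1 did. At 19 months 6 passed, against 3.12% of all genes, which were *Bloc1s6* and *Mfap1b* again, at 0.45 and -0.65, with *Ckmt1* at 0.29, *Spg11* at -0.39, *B2m* at -0.65 and *Gatm* at -0.24. *Bloc1s6*, for a subunit of a complex that builds lysosome-related organelles, was at 20.6 to 23.9 CPM in wild-type and 30.1 to 36.2 CPM in V338Y mice at 3 months. *Mfap1b*, a spliceosome gene with a close copy nearby in *Mfap1a*, was at 13.2 to 16.5 CPM in wild-type and 8.99 to 9.52 CPM in V338Y mice at 3 months, and *Mfap1a* itself had log2 fold changes of 0.13 and 0.06. *Ctdspl2*, the nearest tested gene on the other side from *Spg11*, had log2 fold changes of 0.02 and -0.07.

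Around *Eif3j2* on chromosome 18, none of the 8 genes tested at 3 months and of the 9 tested at 19 months passed the threshold between the genotypes, with 0 and 1 at an unadjusted p under 0.05 and 0 calls by DESeq2. *Gm27325* is left out of these counts, since it lies within *Eif3j2* and had no counts in wild-type mice. Over all genes tested, 0.0616% at 3 months and 3.12% at 19 months passed, so no call among so few genes is near that share. The nearest genes were *Dpysl3*, with log2 fold changes of -0.05 (SE 0.06) and 0.00 (SE 0.06), and *Jakmip2*, with 0.06 (SE 0.06) and 0.05 (SE 0.05), at 3 and 19 months.

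**Figure D5:**
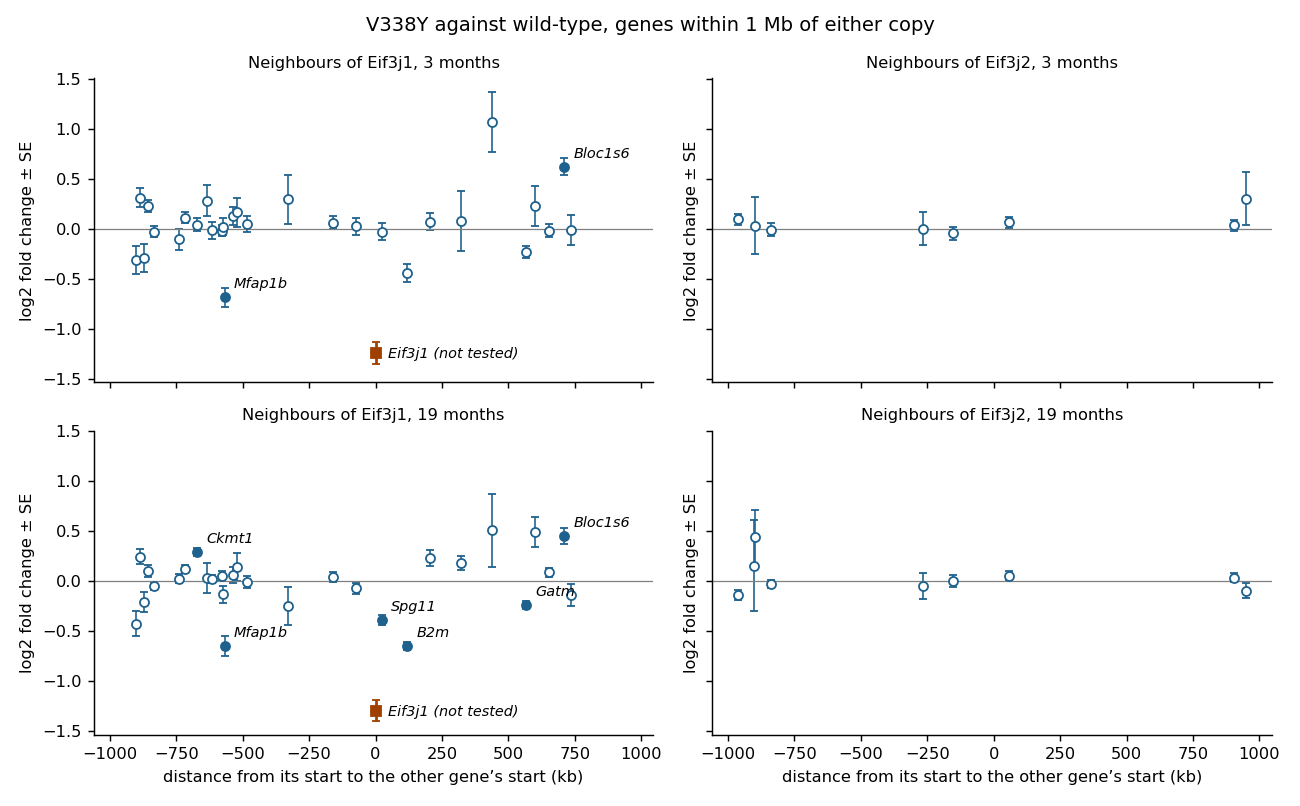
Each circle is a tested gene, placed by the distance in kb between its start and that of *Eif3j1* (left) or *Eif3j2* (right), with its log2 fold change of V338Y against wild-type mice and its SE on the y axis. Filled circles passed an adjusted p of 0.05. Around *Eif3j1* these were 2 of 29 at 3 months and 6 of 29 at 19 months. Around *Eif3j2* there were none among 8 and 9 genes. Over all genes tested, 0.0616% and 3.12% passed. *Gm27325*, which lies within *Eif3j2*, is left out, and the square is *Eif3j1* itself.

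The genes whose log2 CPM followed that of the members most closely over the 16 mice lay on chromosome 2. Over 15240 genes whose mean was 1 CPM or more, those most like *Eif3j1* were *Gm28042* (Pearson r = 0.948), *Pcna* (r = 0.944) and *Pla2g4b* (r = 0.942). *Pla2g4b*, a cytosolic phospholipase gene whose whole span lies within *Gm28042*, was at 5.71 ± 1.58 and 5.39 ± 0.65 CPM in wild-type mice at 3 and 19 months and at 1.33 ± 0.29 and 0.913 ± 0.098 CPM in V338Y mice. Reads of these overlapping genes may be shared. *Pcna*, the sliding clamp of DNA replication, was at 30.0 ± 0.76 and 28.8 ± 0.93 CPM in wild-type and 22.3 ± 1.28 and 23.3 ± 2.59 CPM in V338Y mice.

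Those most like *Eif3j2* were *Pla2g4e* (r = 0.891), *Tubgcp4* (r = 0.883) and *Fahd2a* (r = 0.879), and those most like *Gm3650* were *Mapkbp1* (r = 0.900), *Tubgcp4* (r = 0.892) and *Pla2g4e* (r = 0.876). *Pla2g4e*, another phospholipase gene, was at 47.5 ± 4.76 and 40.6 ± 2.92 CPM in V338Y mice at 3 and 19 months, against 16.1 ± 11.5 and 5.71 ± 0.29 CPM in wild-type mice. The points of these correlations fall into the 2 genotypes and come from the same libraries, so no p is given.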

How the data were processed

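The authors sequenced single-end libraries of brain RNA, for which the methods name both a stranded mRNA kit and a depletion of ribosomal RNA, and deposited 1 table of estimated counts per gene without normalization. The methods of the study name RSEM, with an Ensembl annotation and GRCm37, whereas the submitters' processing notes name bcl2fastq 1.8.4, STAR 2.4.2a, featureCounts and GRCm38. RSEM shares reads between similar genes and featureCounts by default drops them, so which of these made the counts of the near-identical copies is unsure. As deposited, the expected counts were whole and rounded to 4 significant digits: all 1495 values of 10000 or more ended in 0. Of 258 genes whose transcript is identical to one elsewhere, 29 had a count, and 16 had 10 or more over the 16 mice. Of 39179 identifiers, 37607 were given a symbol from GENCODE M21.

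Genotype, age and mouse number were read from the label of each sample. Counts were rounded, normalized with TMM and tested in edgeR 4.0.16 (R 4.3.3) with the robust quasi-likelihood test on the 8 mice of a comparison, for genes that reached 10 counts in 2 or more of the 4 mice of a group, with Benjamini-Hochberg adjustment over all genes and a threshold of 0.05. Differences in age effect were tested as an interaction over all 16 mice. For the sum, both rows were replaced by their total. Per-kb levels used the union of exons. Log2 CPM used a prior count of 2. Sequences were aligned with Biopython 1.88. The labels do not say that mice of a group differ in litter or cage, so p-values measure the spread between these mice. A count of 0 was taken to allow 3 counts, and intervals and limits cover counting error only.

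The members and the lists were chosen with earlier results of these data known. Genes named are the members, the other eIF3 subunits, the 3 genes most like each member, up to 5 initiation or recycling factors with the smallest p per comparison, the nearest tested neighbours and those called at both ages, and *Mrps5*; *Gm27325* and neighbours called at 19 months alone were added after their values were seen. The alternatives were DESeq2 1.42.0, the likelihood-ratio test, RLE size factors, library size only, stricter and no count filters, a fit of all 16 mice, a cerebellum marker score as a covariate, windows of 0.5 and 2 Mb, and leaving out each mouse. The steps were tested on simulated data.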

Additional observations from a re-analysis of the deposited data

Results flagged for a closer look

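In 4 of the 29 groups of 4 mice examined, 1 mouse stood apart from the other 3 by more than Dixon's 95% limit. For continuous values chance alone gives about 1 in 20. This rate does not hold where the other 3 mice have no count, as for *Eif3j2*, its share and *Gm3650*. The flags of *Eif3j2* and of its share rest on the same 3 counts of 1 mouse. The sum of *Eif3j1* and *Eif3j2* was 20.6 CPM in wild-type mouse 14 at 19 months, above the other 3 mice at 17.2 to 17.6 CPM. *Eif3j2* was at 0.241 CPM, a share of 1.40% of both copies, in wild-type mouse 12 at 19 months, where the other 3 mice had no count. *Gm3650* was at 0.0895 CPM in wild-type mouse 11 at 3 months, which is 1 count, where the other 3 mice had none. The values of *Eif3j2* and *Gm3650* are at most 3 counts and lie at or under the level that a count of 0 allows.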

How the results depend on the processing

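Of 471 values computed under alternatives for 34 results, 430 kept their direction and their side of the threshold or stayed within the spread between mice. When the score of cerebellum markers was a covariate, the age effect in wild-type mice turned to 0.11 for *Eif3j1* and 0.15 for the sum, with SEs of 1.05 and 1.04, since the score separates the ages there. The same covariate ended the call of *Eif3j2* with age in V338Y mice (-0.51, adjusted p = 0.0522) and that of the sum (-0.27, adjusted p = 0.233). The sum was also not called under DESeq2 (-0.26), and leaving out 1 mouse gave -0.33 to -0.20.

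Per kb of exon, the *Eif3j2* share was 73.2% and 69.7% in V338Y mice at 3 and 19 months and 1.03% in wild-type mice at 3 months. Leaving out 1 mouse moved the ratio of *Gm3650* to 3 wild-type counts at 19 months to between 5.36 and 9.22. The eIF3 subunits called with age in V338Y mice numbered 4 under the likelihood-ratio test and 3 to 7 without 1 mouse, with 3 without V338Y mouse 16, 17 or 18 and 4 without mouse 13.

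Within 0.5 and 2 Mb of *Eif3j1*, 7 and 30 neighbours were called with age in wild-type mice and 4 and 29 in V338Y mice. Between the genotypes, 0 and 4 were called at 3 months, and 2 and 13 at 19 months. Over all genes tested, 62.8% passed with age in wild-type mice and 48.8% in V338Y mice. Between the genotypes, 0.0616% passed at 3 months and 3.12% at 19 months. The numbers of genes tested within 0.5 and 2 Mb are not given here, so these calls are no result about the locus. At 3 months leaving out 1 mouse gave 0 to 2 calls, with 0 without wild-type mouse 9 or 12 and 1 without mouse 10 or 11. Without a count filter 10 were called at 19 months. Within 0.5 Mb of *Eif3j2*, 3 were called with age in each genotype, to be read beside the same shares over all genes. Within 1 Mb of *Eif3j2*, 1 gene was counted between the genotypes at 3 months under DESeq2, the likelihood-ratio test and no count filter, and 1 at 19 months under no count filter. This was *Gm27325* each time, which lies within *Eif3j2* and had no counts in wild-type mice, so the count repeats the difference on which *Eif3j2* was chosen and is not a result for a neighbour. Beyond the settings named, the cause was not tested.

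Depth limits the wild-type values of *Eif3j2* and *Gm3650*, where 3 counts correspond to 0.200 to 0.494 CPM. No paired analysis was possible because the groups compared share fewer than 2 mouse numbers.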
